A study of Homo sapiens with 15 samples.

Results

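DBP, TEF and HLF are the 3 human genes of the PAR bZIP family, and the peaks of BMAL1 and of HIF2α at these genes were examined in chromatin of 786-O cells. A peak was assigned to one of them when the protein-coding transcription start site nearest to its summit belonged to that gene, or when its summit lay in the gene body. By this rule 5 of the 4873 peaks in 4 lists belonged to the family. Of these, 3 were BMAL1 peaks of control cells, 1 was a BMAL1 peak of BMAL1-depleted cells, 1 was a HIF2α peak of BMAL1-depleted cells and none was a HIF2α peak of control cells.

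786-O is an established line of clear cell renal cell carcinoma (ccRCC) that lacks functional VHL and therefore keeps HIF2α in the presence of oxygen. Cells had been infected with lentivirus encoding an shRNA with a control sequence (shControl, genotype given as WT) or an shRNA against BMAL1 (shBMAL1, genotype given as BMAL1 knockdown), and both populations had been selected in puromycin. No cloning step is described, the labels name shBMAL1 without distinguishing one shRNA from another, and they give neither a circadian time nor a synchronising treatment. CUT&RUN, in which an antibody directs a nuclease to cut out the DNA beneath a bound protein, was run on 100000 cells per reaction. The 15 libraries form 6 groups. In shControl cells there are 3 BMAL1, 3 HIF2α and 2 IgG libraries, and in shBMAL1 cells there are 2 BMAL1, 3 HIF2α and 2 IgG libraries.

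Each BMAL1 or HIF2α group is represented by a single peak list pooled over its libraries. The list of BMAL1 in shControl cells holds 1812 peaks and is the longest, that of BMAL1 in shBMAL1 cells is the shortest, and the HIF2α lists hold 1204 (shControl) and 1089 (shBMAL1) peaks. Every value below is therefore 1 value per list, without replicates and without a measured spread between libraries, and no difference between lists was tested. The lists carry no read counts, so their depth is unknown, and a locus that is not called may still hold signal below the threshold. No IgG list was analysed here. The lists do not report how much BMAL1 protein was left in shBMAL1 cells.

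PAR bZIP proteins are leucine zipper transcription factors with a proline- and acidic-rich (PAR) domain that bind D-boxes as dimers. Their genes are classic outputs of the circadian clock: BMAL1 and CLOCK bind E-boxes at these genes and drive their rhythmic transcription, and the proteins in turn drive rhythmic D-box genes of detoxification and metabolism in liver and kidney. The repressor NFIL3 competes with them for the same D-boxes. HIF2α, the hypoxia-inducible factor that drives ccRCC, binds hypoxia response elements (HREs), whose core letters are also contained in the E-box.

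The sequences at the summits are shown first, because the 3 BMAL1 peaks of shControl cells differed most plainly in their E-boxes. Each is 200 bp of the hg19 reference centred on the summit and reads 5′ to 3′ on the strand of the gene. In the HLF and TEF sequences capitals mark the canonical E-box CACGTG. In the DBP sequence, which holds no canonical E-box, capitals mark E-box-like hexamers, each with 1 letter changed from the E-box, on either strand. Those at DBP were CACGAG once, CATGTG once and CACGCG in both downstream places, and also searched were CACGTT and, besides it, CACATG and, lastly, CACGGG.
HLF, BMAL1 peak of shControl cells, chr17:53315748-53315947, plus strand: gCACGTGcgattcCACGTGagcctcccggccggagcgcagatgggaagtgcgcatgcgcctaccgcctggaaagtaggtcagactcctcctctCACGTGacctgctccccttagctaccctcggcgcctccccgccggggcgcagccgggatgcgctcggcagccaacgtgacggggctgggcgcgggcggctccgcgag
TEF, BMAL1 peak of shControl cells, chr22:41777732-41777931, plus strand: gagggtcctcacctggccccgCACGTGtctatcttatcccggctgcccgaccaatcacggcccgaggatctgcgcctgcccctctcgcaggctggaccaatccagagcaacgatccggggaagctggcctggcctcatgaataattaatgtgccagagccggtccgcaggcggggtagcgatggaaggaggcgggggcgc
DBP, BMAL1 peak of shControl cells, chr19:49140892-49141091, minus strand: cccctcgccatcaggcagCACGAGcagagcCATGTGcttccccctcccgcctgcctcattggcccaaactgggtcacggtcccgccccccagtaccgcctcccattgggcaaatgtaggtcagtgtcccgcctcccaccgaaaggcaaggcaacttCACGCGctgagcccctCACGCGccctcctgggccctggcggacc
In the HIF2α sequence capitals mark the HRE core, ACGTG or GCGTG on either strand.
TEF, HIF2α peak of shBMAL1 cells, chr22:41800072-41800271, plus strand: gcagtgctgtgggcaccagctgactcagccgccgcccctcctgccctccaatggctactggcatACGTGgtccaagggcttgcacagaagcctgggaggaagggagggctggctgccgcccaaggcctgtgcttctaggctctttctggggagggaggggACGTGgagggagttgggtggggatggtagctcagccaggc

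In shControl cells each of the 3 genes had exactly 1 BMAL1 peak. By the same rule 8.83% of the 20149 protein-coding genes had a BMAL1 peak in that list. Fold enrichment, which is the ratio of the signal at the summit to the local background, was 16.2 at TEF, 8.01 at DBP and 7.85 at HLF, beside a median of 7.13 over the list. The −log10 p of the peak caller was 141 at TEF, 30.7 at DBP and 21.1 at HLF. Ordered by p, TEF stood 140th, DBP 665th and HLF 996th of 1812 peaks, so that 92.3%, 63.2% and 44.98% of the list was weaker. TEF thus carried the strong BMAL1 peak of the family, whereas DBP and HLF lay near the middle of the list and differed little from each other in fold enrichment.

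**Figure D1:**
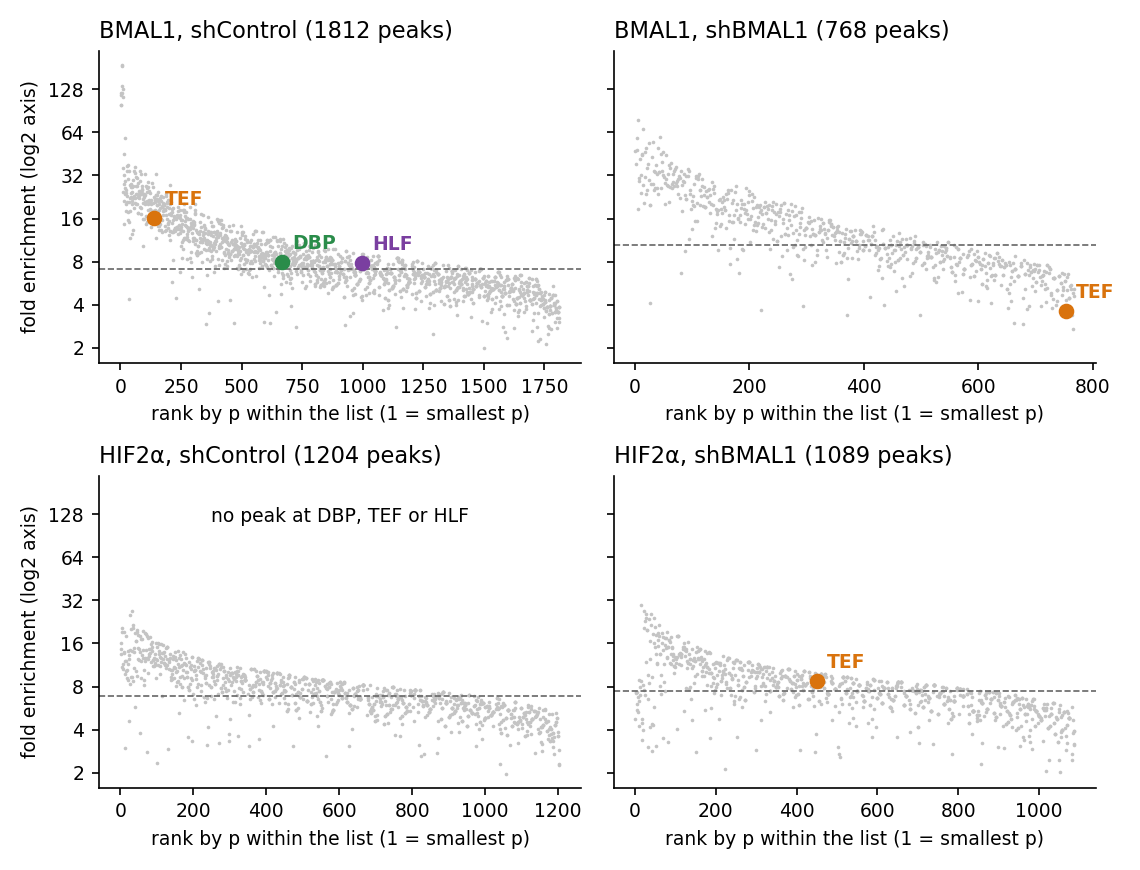
Fold enrichment of every peak (vertical, log2 axis) against its rank by p within its list (horizontal, 1 = smallest p), 1 panel per pooled list, with the peaks at TEF, DBP and HLF coloured and the list's median fold as a dashed line. In shControl cells the BMAL1 peak of TEF (fold 16.2) lies well above the median and those of DBP (8.01) and HLF (7.85) just above it, while in shBMAL1 cells the TEF peak (3.64) is near the end of the list and no peak is assigned to DBP or HLF.

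TEF encodes thyrotroph embryonic factor. The gene (ENSG00000167074) spans chr22:41763337-41795330 on the plus strand of hg19 and has 3 annotated start positions. The reference transcript TEF-201 has 4 exons, and the start of TEF-202 lies at −14609 bp from that of TEF-201, negative distances being upstream. The BMAL1 peak of shControl cells (chr22:41777035-41778402) was 1368 bp wide, the 7th widest of the list, whose median width was 240 bp. Its summit, at position 41777832, lay 114 bp upstream of the TEF-201 start, within the promoter of TEF-201 and an intron of TEF-202. No other protein-coding gene started nearby, the next being TOB2 at 64957 bp. The peak ran across the TEF-201 start into the gene.

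The scan of the TEF gene and 5000 bp to each side found 8 E-boxes in 41.994 kb, of which 3 lay under this peak. They were centred at −611.5, −500.5 and −190.5 bp from the TEF-201 start, at chr22:41777332-41777337, chr22:41777443-41777448 and chr22:41777753-41777758. The nearest of them is the E-box capitalised in the TEF sequence above, 76.5 bp upstream of the summit. The summit itself was closer to CCAAT boxes, which were centred 48 and 2 bp upstream of it. The other 5 E-boxes of the locus, including 1 by the start of TEF-202, lay under no peak of any list.

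DBP, D-site binding protein, is the family member best known for its rhythmic expression. The gene (ENSG00000105516) spans chr19:49133287-49140636 on the minus strand of hg19, with 5 start positions and 4 exons in the reference transcript DBP-201. The BMAL1 peak of shControl cells (chr19:49140795-49141185) was 391 bp wide, and its summit, at position 49140992, lay 356 bp upstream of the DBP-201 start. It filled most of the 566 bp between DBP and the 3′ end of CA11, which encodes a carbonic anhydrase-related protein and is read from the same strand. The peak began 159 bp from DBP and ended 18 bp short of CA11. A short CA11 transcript with a retained intron starts 650 bp from the summit, and no peak of any list was assigned to CA11.

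No canonical E-box was found in the 200 bp at the DBP summit or in the whole peak. In mouse, intragenic E-boxes are well known as BMAL1 and CLOCK sites of this gene. The 4 E-boxes found in the human gene and 5000 bp to each side (17.35 kb) lay 2680.5, 2815.5, 3707.5 and 9589.5 bp downstream of the DBP-201 start, and none was under a peak. The first and second of these (chr19:49137953-49137958, in an exon, and chr19:49137818-49137823, in an annotated UTR) lay near the internal starts of the transcripts DBP-204 and DBP-202, 2743 and 2853 bp into the gene. The peak instead held 5 E-box-like hexamers, 4 of them in the window shown. Their centres lay at −78.5 and −66.5 bp from the summit, with 6 bases between them, and at 59.5 and 75.5 bp, with 10 bases between them.

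HLF, hepatic leukemia factor, encodes the remaining PAR bZIP protein. The gene (ENSG00000108924) spans chr17:53342321-53402548 on the plus strand of hg19, with 11 start positions. Its BMAL1 peak of shControl cells (chr17:53315619-53315943, 325 bp) was not at the promoter. The summit, at position 53315848, lay 26473 bp upstream of the HLF-201 start, in intergenic sequence. HLF was nevertheless by far the nearest protein-coding start, since the next, MMD, was 183310 bp away. The nearest other BMAL1 peak of the same list was also at MMD, 183463 bp away, so the HLF peak stood alone.

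This distal peak was the one with most E-boxes at its summit. The window held 3, centred 96.5, 84.5 and 4.5 bp upstream of the summit, the last of them almost on the summit and the first and second separated by 6 bases. Tandem E-boxes spaced by 6 or 7 bases are known as preferred sites of BMAL1 and CLOCK. Of the 1809 windows of the shControl BMAL1 list without undetermined bases, 2 held 2 canonical E-boxes with 6 or 7 bases between them (0.111%), 36 held at least 2 E-boxes (1.99%) and 9 held at least 3 (0.498%). Of 19862 windows centred on the start sites of protein-coding genes, 2 held such a pair (0.0101%) and 10 at least 3 E-boxes (0.0503%). Counting E-box-like hexamers as well, 17 windows of the list (0.940%) and 56 of the start sites (0.282%) held a pair of this spacing, and the windows at HLF and DBP were among the 17. The 12 E-boxes in the HLF gene and 5000 bp to each side (70.228 kb), the nearest 1312.5 bp into the gene, all lay outside the peaks.

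**Figure D2:**
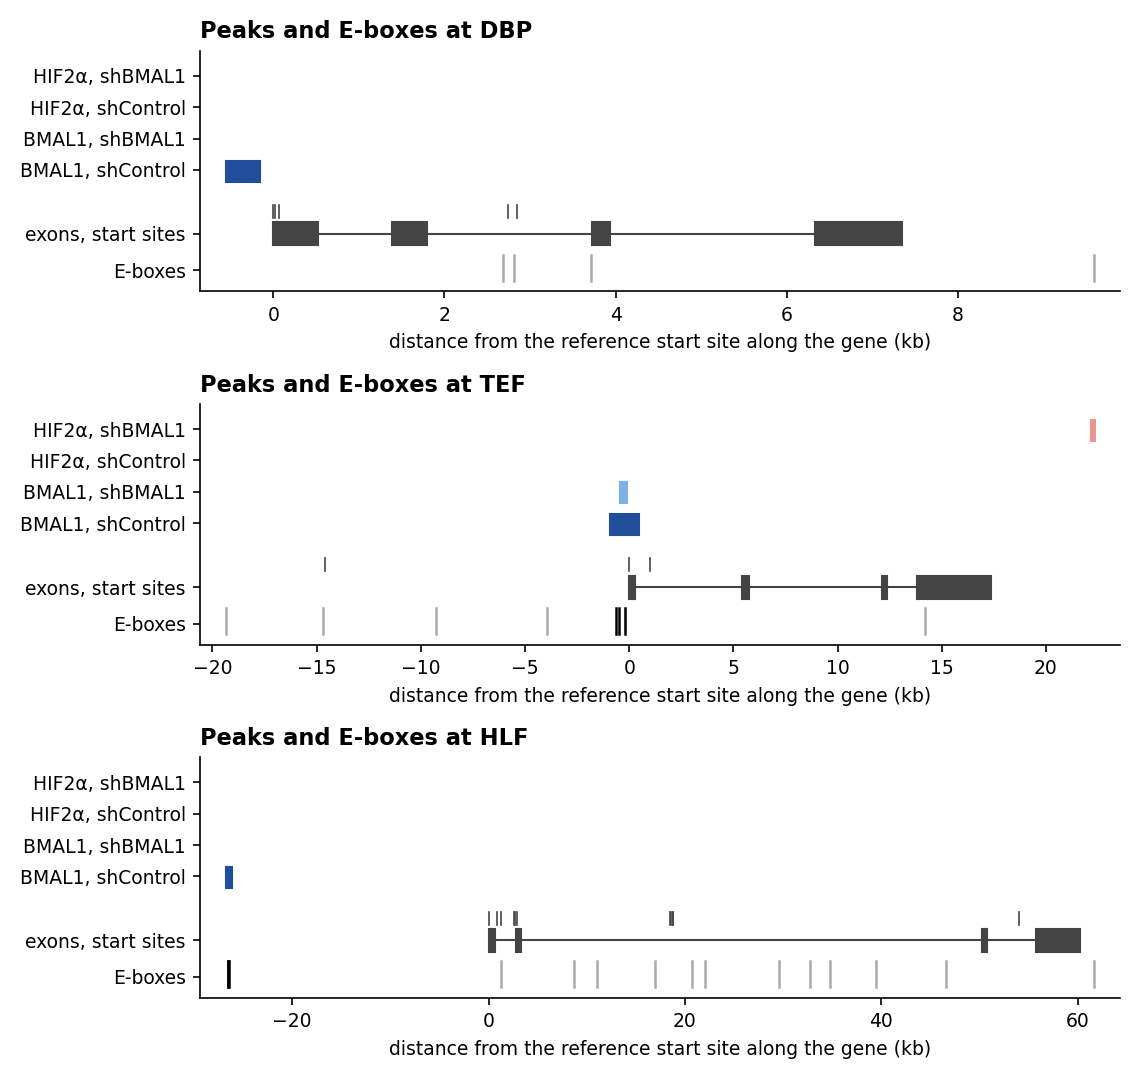
Peaks of the 4 lists (coloured boxes), exons of the reference transcript and all start sites (dark boxes and ticks) and E-boxes (black under a peak, grey elsewhere) at DBP, TEF and HLF, by distance from the reference start site along the gene in kb. Narrow boxes are drawn at a minimum width. BMAL1 sits 356 bp upstream of DBP away from its 4 E-boxes, 114 bp upstream of TEF over 3 of 8 E-boxes, and 26473 bp upstream of HLF over 3 E-boxes.

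Across the family, 2 of the 3 shControl BMAL1 summits (TEF and HLF) had an E-box within the 200 bp window, beside 12.9% of all windows of the list and 5.66% of the start-site windows. E-box-like hexamers were in 37.0% of the windows of the list, and were present at DBP and HLF. A summit counted as promoter within 1000 bp before or 100 bp after the start of any annotated transcript. On this measure 2 of the 3 (DBP and TEF) were in a promoter, beside 63.3% of the list. E-box and promoter therefore did not go together in the family: TEF had both, HLF the E-box alone and DBP the promoter alone. Other promoter letters were also unevenly shared. DBP and TEF each had 2 CCAAT boxes in the window (32.1% of the list had any) and HLF had none, while the GC box GGGCGG was in the windows at DBP and HLF (61.6%) and not in the TEF window. Over the whole peaks this order turned, with 18 GC boxes in the wide TEF peak, 3 at HLF and 1 at DBP, and the TEF window of shBMAL1 cells, with its summit 28 bp away, held 2. GC content was 71.5% at HLF, 68% at DBP and 65.5% at TEF.

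**Figure D3:**
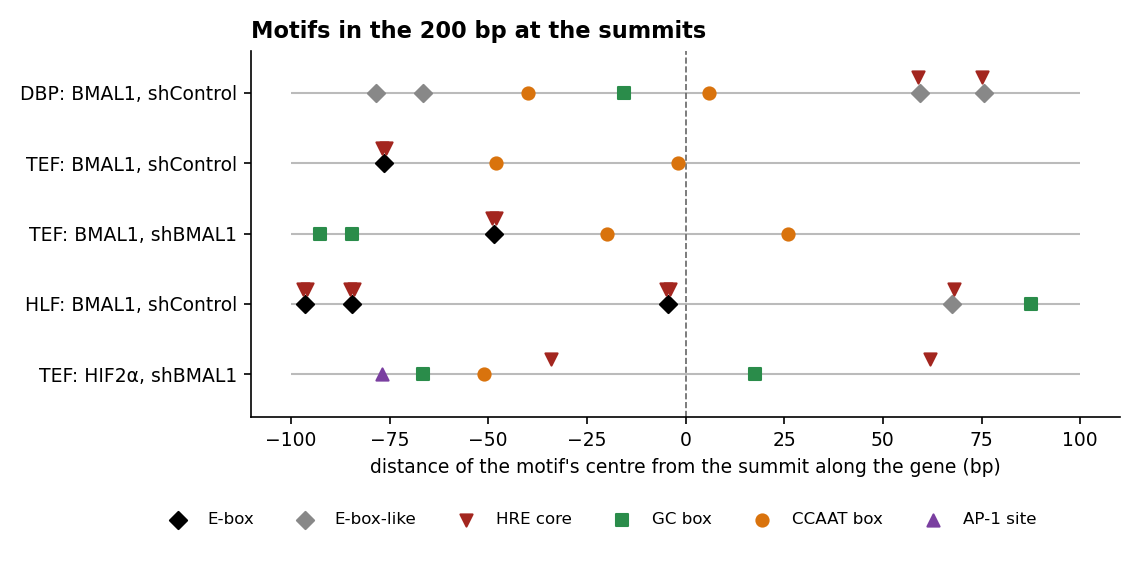
Motifs in 200 bp centred on each of the 5 summits, by the distance of the motif's centre from the summit in bp along the gene, on either strand. HLF shows E-boxes at −96.5, −84.5 and −4.5 bp, TEF 1 E-box at −76.5 bp of the shControl summit, DBP no E-box but E-box-like hexamers at −78.5, −66.5, 59.5 and 75.5 bp beside CCAAT boxes and a GC box, and the HIF2α summit near TEF HRE cores at −34 and 62 bp; every E-box also contains the HRE core on both strands.

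The D-box, the element the 3 proteins bind, was searched as TTATGTAA, TTACGTAA and TTATATAA. None of the 5 peaks held it, in the window or in the whole peak, which says only that these letters are not there. It was rare throughout, in 0.719% of the shControl BMAL1 windows and 0.478% of the start-site windows.

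The comparison with shBMAL1 cells asked what remained of these BMAL1 peaks when BMAL1 was depleted. Of the 3 genes only TEF had a BMAL1 peak in shBMAL1 cells, where 3.94% of protein-coding genes had one. Accordingly 1 of the 3 shControl peaks overlapped a peak of the shBMAL1 list by at least 1 bp, beside 38.7% of the 1812 shControl peaks. For DBP and HLF no peak was called near the control summit. The nearest BMAL1 peaks of shBMAL1 cells were 76148 bp from the DBP peak, at MAMSTR, and 1595389 bp from the HLF peak.

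At TEF the peak that remained was small. It (chr22:41777512-41777857) was 346 bp wide, 25.3% of the control width, and its summit lay 142 bp upstream of the TEF-201 start, 28 bp from the control summit. Of the 3 E-boxes under the control peak it still covered the one at chr22:41777753-41777758, and the outer pair was outside it. Fold enrichment was 3.64, beside 16.2 in shControl cells and a median of 10.5 over the shBMAL1 list. The −log10 p was 10.7, and the peak stood 753rd by p and 762nd by fold, with 1.95% of the list weaker by p. The TEF peak, near the top of the control list, was thus among the weakest called in BMAL1-depleted cells.

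This difference was set beside all 701 shControl BMAL1 peaks that overlapped a BMAL1 peak of shBMAL1 cells, each paired with the overlapping peak of smallest p. Over these pairs the median log2 ratio of fold enrichment, shBMAL1 over shControl, was 0.18, with quartiles of −0.20 and 0.54, and fold was lower in shBMAL1 cells in 264 of 701. At TEF the log2 ratio was −2.15, a fold enrichment 4.45-fold lower, and the second lowest of the 701. The lowest was at PER1 (−2.17, from 26.9 to 6.00), and the next were PER3 (−1.78, from 13.5 to 3.94) and PER2 (−1.78, from 13.4 to 3.91). These genes encode the period repressors of the clock. The 4 lowest ratios among the 701 pairs were thus all at clock genes or clock outputs. Pairs exist only where a shBMAL1 peak was called, and the lowest fold in the shBMAL1 BMAL1 list was 2.72. A control peak of low fold could therefore not reach such ratios. DBP and HLF are not among the pairs, and neither are clock genes without a BMAL1 peak in shBMAL1 cells. NR1D1, which encodes the clock repressor REV-ERBα, was 68th (−0.64, from 13.3 to 8.49).

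**Figure D4:**
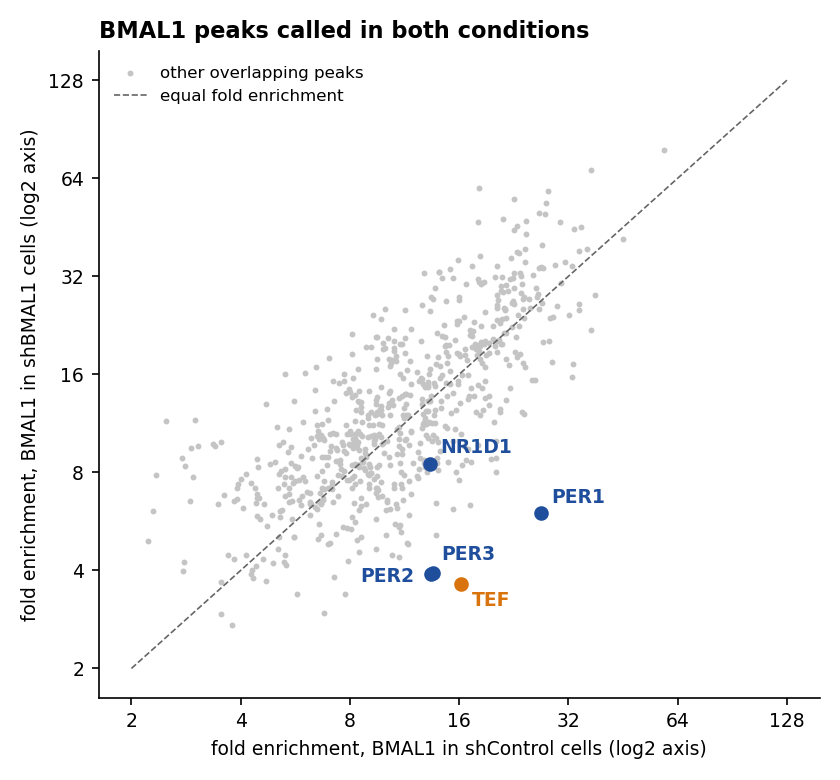
Fold enrichment in shBMAL1 cells (vertical) against shControl cells (horizontal), both log2 axes, for the 701 BMAL1 peaks of shControl cells that overlapped a BMAL1 peak of shBMAL1 cells, with the line of equal values dashed. TEF (16.2 against 3.64) lies with PER1, PER2 and PER3 at the lower right edge, apart from most pairs, and NR1D1 lies nearer to the line.

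The ratios compare values that were each scaled to the local background of their own list. No scaling by the yeast spike-in is described for the peak calling. The authors, who scaled their signal tracks by that spike-in, report that BMAL1 peaks remaining after depletion were less intense. The ratios of fold enrichment are therefore not a direct measure of change in BMAL1 signal. The BMAL1 list of shBMAL1 cells was pooled from 2 libraries and that of shControl cells from 3, so the knockdown and the difference in number of libraries cannot be told apart in which peaks were called. Strength went with calling across the list. When the shControl list was divided by p into 5 equal parts, of the part with the smallest p, which holds TEF, 327 of 363 overlapped a shBMAL1 peak (90.1%, 95% Wilson interval 86.6% to 92.8%). In the next part, which holds DBP, 219 of 362 did (60.5%, 55.4% to 65.4%), and in the middle part, which holds HLF, 82 of 363 did (22.6%, 18.6% to 27.2%). These intervals cover counting error over peaks only. DBP stood near the weak end of its part. Among the 100 peaks within 50 ranks of each gene's peak by p, 97 overlapped a shBMAL1 peak around TEF, 44 around DBP (44%, 34.7% to 53.8%) and 22 around HLF (22%, 15.0% to 31.1%). Among the 327 pairs of the strongest part the TEF ratio was again the second lowest.

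Peaks also differed by their sequence. Among shControl BMAL1 peaks in a promoter, 38 of 136 with an E-box overlapped a shBMAL1 peak (27.9%), as TEF did, and 490 of 1009 without one did (48.6%), a class in which DBP did not. Outside promoters 8 of 97 with an E-box did (8.25%), a class in which HLF did not, and 163 of 567 without an E-box did (28.7%). Among the pairs whose control window held no undetermined bases, the 46 with an E-box at the control summit had a median log2 ratio of −0.01. The 653 without had 0.18. The ratio at TEF (−2.15) thus also lay far below the middle of the E-box peaks.

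The HIF2α lists were examined to see whether HIF2α was found at the same genes. In shControl cells HIF2α had a peak at none of the 3, beside 5.17% of protein-coding genes, and none of the 3 BMAL1 peaks overlapped a HIF2α peak, beside 18.5% of the shControl BMAL1 list. These counts over 3 genes and 3 peaks are too small to be set apart from those shares, and no difference was tested. The nearest HIF2α peak of shControl cells was 43234 bp from the BMAL1 peak of DBP, at NTN5, 728678 bp from that of TEF and 2994419 bp from that of HLF.

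In shBMAL1 cells a HIF2α peak was assigned to TEF, in a list in which 4.55% of protein-coding genes had one. The peak (chr22:41800091-41800238, 148 bp) had a fold enrichment of 8.78, beside a list median of 7.40, and a −log10 p of 20.9, and it stood 450th of 1089 by p. It was not at the TEF promoter. Its summit lay in intergenic sequence 4842 bp beyond the 3′ end of the gene and 22226 bp downstream of the TEF-201 start, and the next gene start, that of TOB2, was 42617 bp away. The peak overlapped no HIF2α peak of shControl cells, as against 63.9% of the shBMAL1 HIF2α list that did, and the nearest was 751734 bp away. It also lay 21689 bp from the BMAL1 peak of TEF in shControl cells and 22234 bp from that in shBMAL1 cells.

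The window at this summit, shown above, held no E-box. It held 2 HRE cores, 34 bp upstream and 62 bp downstream of the summit, a motif present in 69.5% of the windows of that list. An AP-1 site (TGACTCA, or TGAGTCA on the other strand) was centred 77 bp upstream, and 26.5% of the windows had one. AP-1 sites were in none of the BMAL1 peaks at the 3 genes. The HIF2α peak thus shared with the BMAL1 peaks the assignment to TEF and neither position nor E-box.

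The other clock genes were taken from a list of 22. In shControl cells 11 of the 22 had a BMAL1 peak, beside 8.83% of protein-coding genes. They included PER1, PER2, PER3, CRY1, CRY2 and CIART of the repressors, and NR1D1 and NR1D2. The others were BHLHE40 and BHLHE41, which encode E-box-binding repressors, and the kinase gene CSNK1D. The peaks of smallest p at BHLHE40 and CSNK1D lay 14765 and 14515 bp from the start sites of these genes. Those of the other genes lay at most 1281 bp (NR1D1) from their own. The fold enrichment of the peak of smallest p ranged from 4.15 at CSNK1D to 26.9 at PER1, with a median of 11.8 and a median rank of 298, beside 8.01 and 665 for the PAR bZIP genes. By fold TEF stood between CIART (17.0) and PER3 (13.5). DBP and HLF had lower fold than CRY1 (11.0) and NR1D2 (10.6) and higher fold than BHLHE40 (5.68) and BHLHE41 (4.47). An E-box lay at the summit in 5 of the 11, beside 12.9% of all windows of the list.

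At 4 of these 11 the control peak of smallest p overlapped a BMAL1 peak of shBMAL1 cells, beside 38.7% of all shControl BMAL1 peaks. The 4 were PER1, PER2, PER3 and NR1D1. CRY1, CRY2, CIART and NR1D2, with fold of 10.6 to 17.0 in shControl cells, had none, as DBP had none. The weaker peaks at BHLHE40 (5.68), BHLHE41 (4.47) and CSNK1D (4.15) overlapped none either. HIF2α was at PER1, PER2 and BHLHE40 in shControl cells (3 of the 22, beside 5.17% of protein-coding genes). In shBMAL1 cells it was at these 3 and at NFIL3 and RORB (5 of the 22, beside 4.55%). At NFIL3, whose product competes with the PAR bZIP proteins, no BMAL1 peak was called, and the HIF2α peak of shBMAL1 cells had a fold of 6.94 and stood 941st. The HIF2α peak assigned to RORB in shBMAL1 cells had a fold of 7.28 and stood 829th. TEF, NFIL3 and RORB thus each had a HIF2α peak assigned in shBMAL1 cells and none in shControl cells. The nearest start site decides this assignment, with no limit on distance. Over the shBMAL1 HIF2α list, 63.9% of peaks overlapped a HIF2α peak of shControl cells, which is a share of peaks and not of genes. The authors report that visual inspection and motif enrichment gave no support for widespread movement of HIF2α to new loci after BMAL1 depletion.

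**Figure D5:**
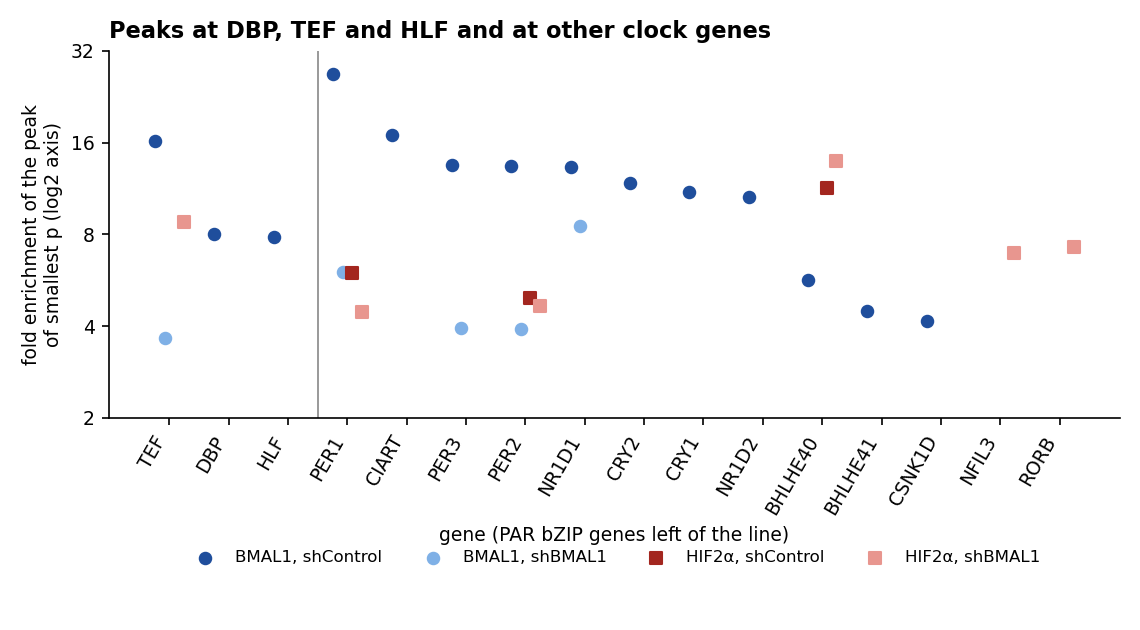
Fold enrichment (log2 axis) of the peak of smallest p at each PAR bZIP gene and at each of the other clock genes with a BMAL1 peak in shControl cells or a HIF2α peak, by list; circles are BMAL1, squares HIF2α, and a missing symbol means that no peak was called. At TEF, PER1, PER2 and PER3 the BMAL1 value in shBMAL1 cells lies between 3.64 and 6.00, below that of shControl cells at the same gene, and DBP and HLF have the shControl BMAL1 value alone.

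Peaks were also sought one step further, at 9 genes known as targets of PAR bZIP proteins. BMAL1 had a peak in shControl cells at 1 of the 9, beside 8.83% of all protein-coding genes. This gene was PDXK, which encodes the pyridoxal kinase that makes active vitamin B6. Its fold enrichment was 7.05 (824th), its summit lay 18 bp from the start site with an E-box in the window, and it overlapped no BMAL1 peak of shBMAL1 cells. A HIF2α peak of shControl cells overlapped it (fold 5.90, 629th), with the summits 17 bp apart. PDXK was thus a site of both proteins in shControl cells. In shControl cells HIF2α had a peak at 1 of the 9, beside 5.17% of protein-coding genes. In shBMAL1 cells none of the 9 had a peak of either, beside 3.94% (BMAL1) and 4.55% (HIF2α) of protein-coding genes. Counts over 9 genes are too small to be set apart from those shares, and no difference was tested. The related bZIP genes CEBPA, CEBPB, CEBPD and CEBPG had no peak in any of the 4 lists, in which 3.94% to 8.83% of protein-coding genes had one.

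The set of lists in which a gene had a peak was common for DBP and HLF and less so for TEF. DBP and HLF had peaks in the shControl BMAL1 list alone, as did 721 other protein-coding genes in each case, a number that counts each of the pair for the other. The gene nearest to DBP in fold enrichment was EPS8L2 (8.01), and the gene nearest to HLF was MCCC1 (7.85). TEF had peaks in 3 lists, the BMAL1 lists and that of HIF2α in shBMAL1 cells, as did 35 other genes. The nearest of these by Euclidean distance of log2 fold over the 3 lists was MPRIP (distance 1.17), with a fold of 12.2 for BMAL1 in shControl cells, 7.79 for BMAL1 after depletion and 8.51 for HIF2α.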

How the data were processed

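CUT&RUN libraries of 786-O cells were processed by the authors, who aligned paired reads to hg19 and to yeast (sacCer3) with Bowtie2 2.5.3, removed duplicates with SAMtools 1.6 and sambamba, called peaks with MACS2 2.2.9.1, removed blacklisted regions with bedtools 2.31.1 and deposited 1 pooled peak list per antibody and shRNA. Fold enrichment, deposited by the authors for every peak, is the MACS2 ratio of signal to local background. The deposited −log10 p and −log10 q are MACS2 values; in the 4 lists the lowest −log10 p was 8.64 to 9.07. Whether IgG served as control in peak calling is not given in the sources used here, and the authors left out a BMAL1 library of shBMAL1 cells for few reads.

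Summits were assigned to genes with GENCODE 44 lifted to GRCh37, whose coordinates are those of hg19 (positions count from 1). Python 3.11.15, numpy 2.4.6, pandas 2.3.3 and scipy 1.17.1 were used. Motifs were counted on both strands in 200 bp at the summit; an HRE core lies on both strands of every E-box, and it can lie in an E-box-like hexamer. Peaks overlapped when they shared 1 bp. With 1 pooled list per group there is no value per library, hence no test. Overlap and motif code was tested on simulated data. Named genes were DBP, TEF and HLF, 22 clock genes, 9 PAR bZIP targets, 4 C/EBP genes, genes starting within 10000 bp of a summit and the genes of most similar fold; other genes name neighbouring peaks or starts. A clock gene of the list is not reported here. The members and lists were chosen with earlier results of these data known. Counts of E-box pairs and of several E-boxes, the comparison over 701 pairs, overlap among peaks of neighbouring rank and the position of TEF among them were added after the values were seen. Alternatives were the threshold, overlap, assignment, ranking measure, list length, promoter and window.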

Additional observations from a re-analysis of the deposited data

How the results depend on the processing

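Of 43 alternatives to 12 results, 34 left the value as it was or within the limit set for calling it the same, and 9 moved it. At a −log10 p of at least 20, no BMAL1 peak of shBMAL1 cells was left at the 3 genes (0 instead of 1), so that 0 of the 3 shControl peaks overlapped one. With a summit required in the gene body or within 10000 bp, 0 HIF2α peaks of shBMAL1 cells instead of 1 belonged to TEF, and the shControl BMAL1 count was 2, without HLF. It was also 2 with every list shortened to the length of the shortest. These changes of the shControl BMAL1 count from 3 to 2 fell within the limit for calling a value the same, and are counted among the 34. Ranked by fold in place of p, TEF stood 199th, DBP 743rd and HLF 772nd. In a window of 100 bp, 1 summit (HLF) in place of 2 had an E-box. Under alternatives chosen after seeing the data, TEF had the lowest ratio (1st) of 653 pairs with summits at most 100 bp apart, a limit that leaves out PER1, and also the lowest (1st of 701) by the ratio of −log10 p; it was second lowest of 699 pairs that shared at least 50% of the shorter peak. No paired analysis was possible because a pooled list has no values by replicate number, and for the same reason no library could be left out. The unknown depth and the 2 libraries behind the shBMAL1 BMAL1 list limit what its uncalled loci show.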
